A study of Mus musculus with 2 samples.

Results

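Nefl, Nefm, Ina and Vim encode intermediate filament proteins, and their mRNAs were recovered with the RNA helicase Mov10 from mouse brain at postnatal day 2 (P2). Peaks of Mov10-bound RNA were assigned to these genes where at least 1 base lay under an exon of the gene on the strand opposite the one listed for the peak. All peaks of the 4 genes were taken, whatever their adjusted p. The rule gave 6 peaks, with 2 in Nefl, 1 in Nefm, 2 in Ina and 1 in Vim, out of 2296 deposited peaks and out of 657 peaks over exons of protein-coding genes. The peaks were thus chosen by their IP and input read counts, since RIPSeeker was run to list regions enriched in the IP over the input, and their excess in the IP is a description, not a finding. On the chromosomes, 639 of the peaks over exons lay opposite the exon's strand alone, 6 lay on the same strand alone and 18 had exons on both strands.

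The RNA came from the pooled brains of 28 WT pups of the C57bl/6 strain at P2, and 1 library was made from the RNA immunoprecipitated with Mov10 and 1 from total input RNA. The lysate had first been exposed to an irrelevant antibody against EGFP, the RIP-seq was done without UV cross-linking, and the irrelevant IP was not analysed here. No replicate exists for either library, so each interval given is an exact 95% interval for the error of counting reads in these 2 libraries and says nothing of how other brains would vary. Whole brain is a mixture, and a low read count from fewer cells of a type cannot be told apart from less RNA per cell. The peaks over exons held marker genes of several cell types, namely 6 of 19 neuron markers, 3 of 15 of radial glia and astrocytes, 5 of 18 of endothelial, pericyte and meningeal cells and 1 of 7 of oligodendrocytes. None of 6 microglia markers had such a peak, and of all protein-coding genes counted the same way 2.65% had one. These totals count the markers on chromosome strands that have a peak in the list.

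Intermediate filaments are rope-like polymers of proteins that share a coiled-coil rod between a variable head and a variable tail. Neurofilaments fill the axon and set its calibre. NEFL, the light subunit, is the core of the neurofilament, NEFM, the medium subunit, has a long acidic tail with phosphorylated repeats, and INA (α-internexin) is a neuronal subunit that appears earlier in development than the others. Vimentin is the filament of radial glia, immature astrocytes, endothelium and meninges, and newborn neurons also hold it for a short time. Mov10 is an RNA helicase that unwinds RNA and acts with AGO2 and FMRP on mRNAs.

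All positions below are on mm10 (GRCm38), and exons are those of GENCODE M21. The first Nefl peak covers chr14:68084551-68085000 in exon 1 of 4 of the transcript (gene ENSMUSG00000022055.7, + strand), and all of its 450 bases are coding. It spans residues 197 to 346 of the 543-residue protein and lies within the rod, whose conserved end falls at residue 398. The second Nefl peak, chr14:68086576-68086800, lies in exon 3, is coding over all of its 225 bases and spans residues 421 to 496, in the tail. The Nefm peak (gene ENSMUSG00000022054.11, - strand) covers chr14:68120431-68120640 in exon 3 of 3 and is also coding throughout its 210 bases. It spans residues 648 to 718 of 848, beyond the rod end at residue 407. It holds none of the 4 Lys-Ser-Pro motifs that were counted in the protein.

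The first Ina peak (gene ENSMUSG00000034336.3, + strand) covers chr19:47023601-47023800 in exon 3 of 3 and runs across the stop codon, with 50 coding bases and 150 bases of the 3′ UTR. The second Ina peak, chr19:47025001-47025200, lies in the 3′ UTR, 1350 bases past the stop codon and 127 bases before the transcript's end. The Vim peak (gene ENSMUSG00000026728.9, + strand) covers chr2:13574251-13574475 in exon 1 of 9 and runs across the start codon, with 181 bases of the 5′ UTR and 44 coding bases. So 3 of the 6 peaks were coding throughout, and the other 3 touched a UTR. By the part that held most of the bases, both Ina peaks were in the 3′ UTR and the Vim peak in the 5′ UTR. Of the 657 peaks over exons, 57.5% lay mostly in coding sequence, 31.8% mostly in a 3′ UTR and 10.7% mostly in a 5′ UTR.

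**Figure D1:**
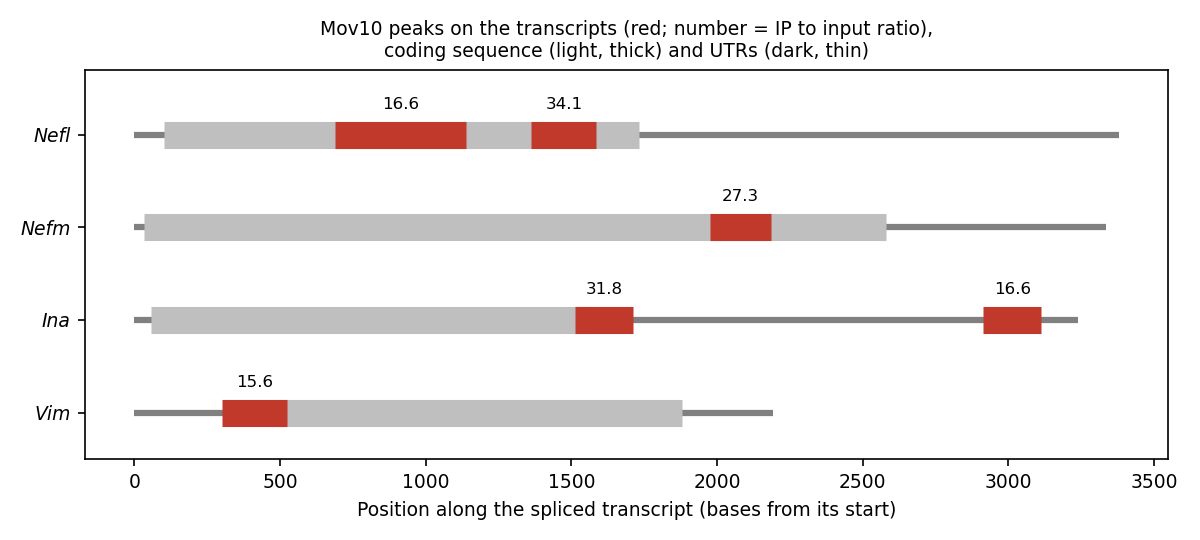
Peaks (red) on the spliced transcript of each gene, with bases from the transcript's start on the horizontal axis, coding sequence as thick light bars and UTRs as thin dark bars. The number above each peak is its IP to input ratio, which ran from 15.6 at Vim to 34.1 at the second Nefl peak.

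The coding ends of the Ina and Vim peaks are shown to place the stop and the start codon, in capitals, within them. The reference sequence is that of the GENCODE M21 transcripts.
Ina peak 1, end of the coding sequence, chr19:47023601-47023650, + strand: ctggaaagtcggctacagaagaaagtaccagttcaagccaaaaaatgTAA
Vim, start of the coding sequence, chr2:13574432-13574475, + strand: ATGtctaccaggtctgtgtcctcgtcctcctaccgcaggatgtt

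The neurofilament light chain, Nefl, held the most reads. Its first peak had 7528 IP reads and 377 input reads, and its second peak had 4172 IP reads and 102 input reads. Per 1000 bases of peak, the IP held 16729 and 18542 reads at the first and second peak, and the input held 837.8 and 453.3. The IP was thus almost level across both peaks, 1.11 times as high at the second, while the input was 1.85 times as high at the first.

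Each count was divided by the aligned reads of its library, of which the IP had 1.20 times as many as the input, to give an enrichment ratio. The ratio was 16.6 (interval 15.0 to 18.5) at the first Nefl peak, in the rod, and 34.1 (28.0 to 41.9) at the second, in the tail. The second exceeded the first 2.05-fold, with an interval of 1.64 to 2.58 that does not depend on the library totals. The peaks lie 223 bases apart on the spliced transcript, and with their reads summed the gene had a ratio of 20.4 (18.6 to 22.4). Together they cover 20.0% of the transcript. The strand of the first peak needs a caution, since 420 of its 450 bases also lie under an exon of an alternative Nefm transcript annotated on the peak's own listed strand. The share of its reads from that transcript was not tested.

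Nefm, the medium chain, was the weakest of the 4 genes in reads. Its peak had 1048 IP reads and 32 input reads, or 4990 and 152.4 per 1000 bases, the lowest of the 6 peaks in both libraries. The ratio was nonetheless 27.3, with the widest interval of the 6 (19.2 to 40.1) because of the low input count. This single peak covers 6.30% of the transcript.

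Ina held 4877 IP and 128 input reads at its first peak, over the stop codon. At its second peak, near the 3′ end, it held 5099 IP and 256 input reads. Both peaks are 200 bases long, and the IP reads per 1000 bases, 24385 and 25495, were the highest of the 6 peaks. As in Nefl, the IP differed little between the peaks (1.05-fold), while the input was 2.0 times as high at the second peak, with 640 reads per 1000 bases at the first and 1280 at the second. The ratio was 31.8 (26.6 to 38.2) over the stop codon and 16.6 (14.6 to 18.9) near the 3′ end, a 1.91-fold difference (1.54 to 2.39). The peaks lie 1200 bases apart on the transcript, and the summed ratio of the gene was 21.7 (19.6 to 24.0).

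Vim had 4594 IP reads and 245 input reads over its start codon, or 20418 and 1089 per 1000 bases. Its ratio, 15.6 (13.7 to 17.8), was the lowest of the 6, although its IP reads per 1000 bases exceeded those of both Nefl peaks. The peak covers 10.3% of the transcript. Vim was the only one of the 4 genes whose peak touched the 5′ UTR. Among all peaks over exons, those mostly in a 5′ UTR had a median ratio of 8.60. The median was 14.8 for those mostly in coding sequence and 15.4 for those mostly in a 3′ UTR.

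**Figure D2:**
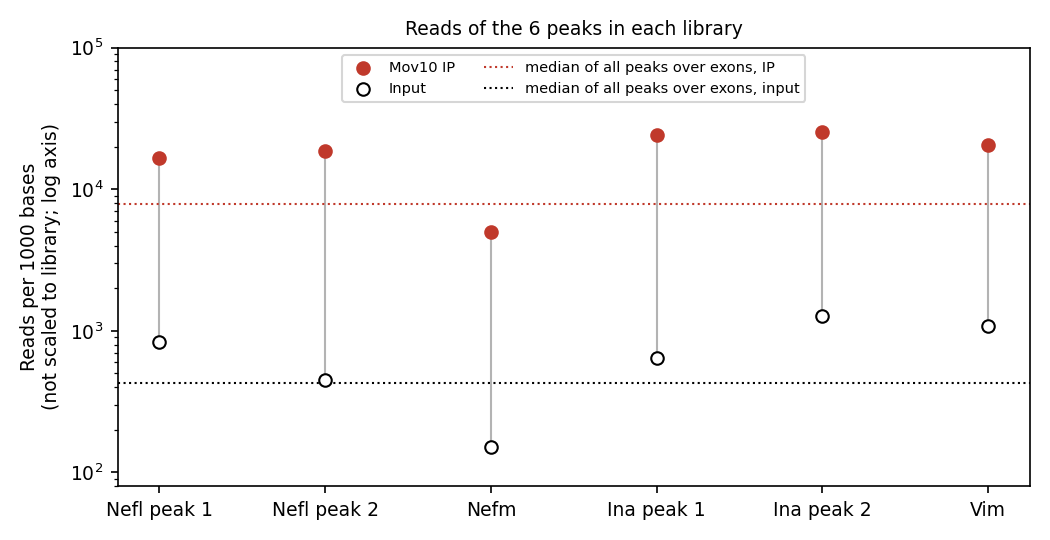
Reads per 1000 bases of each peak in the Mov10 IP (filled) and the input (open), on a log axis and not scaled to library size, with dotted lines at the medians of the 657 peaks over exons. The Nefm peak had the fewest reads in both libraries, and the input fell from 838 to 453 between the Nefl peaks while the IP rose slightly from 16729 to 18542.

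When sorted, the 6 ratios fell into an upper and a lower trio. The trios were drawn from these same ratios, so their separation is a description. The intervals below are not corrected for the number of comparisons. From high to low they were the second Nefl peak, the first Ina peak, Nefm, the first Nefl peak, the second Ina peak and Vim. Of the 15 ratios between peaks, 9 had an interval above 1, and these were all the comparisons of an upper with a lower peak. They ran from 1.64 (1.13 to 2.45), Nefm over the first Nefl peak, to 2.18 (1.72 to 2.79), the second Nefl peak over Vim. Within the upper trio the largest difference was 1.25-fold (0.81 to 1.89), the second Nefl peak over Nefm, and within the lower trio it was 1.06-fold (0.90 to 1.26), the first Nefl peak over Vim. Those 6 intervals held 1, which leaves differences of the stated size possible. The split ran through both Nefl and Ina, so it did not follow the gene. It followed the input, with 152 to 640 input reads per 1000 bases in the upper trio and 838 to 1280 in the lower. IP reads per 1000 bases overlapped, with 4990 to 24385 in the upper trio and 16729 to 25495 in the lower. The cause of the split was not tested. Ratios ranged over 2.18-fold, less than the 5.11-fold range of IP reads per 1000 bases and the 8.40-fold range of input reads per 1000 bases.

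A difference between peaks of the same mRNA was common in the list. Among 136 genes with several peaks over exons of at least 10 input reads each, the highest ratio exceeded the lowest by a median of 1.69-fold. It did so by more than 1.5-fold in 82 genes and by more than 2-fold in 42. The spread in Nefl was wider than in 70.6% of these genes and that in Ina wider than in 64.7%. The number of peaks per gene differs among them, and the comparison is a description.

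Beside all peaks over exons, the 6 filament peaks lay above the median ratio, and all but Nefm lay above the median reads per 1000 bases in both libraries. The interval of Vim (13.7 to 17.8) held that median ratio. All 6 had an interval above 1, as did 99.8% of the 657 peaks, and all 6 passed an adjusted p of 0.05, as did 89.8%. Nothing about these genes follows from those counts, which are near the share in all peaks and rest on the reads that chose the list. With a pseudocount of 0.5 on both counts, the median ratio was 21.8 over the 6 peaks and 14.5 over all 657. By ratio, the second Nefl peak ranked 88 of 657 from the top, the first Ina peak 101, Nefm 122, the first Nefl peak 273, the second Ina peak 275 and Vim 294. The median IP reads per 1000 bases were 19480 over the 6 peaks and 7922 over all, and the median input reads per 1000 bases were 739 and 425. The second Ina peak ranked 44 of 657 by IP reads per 1000 bases, and Nefm ranked 456 by that measure and 570 by input reads per 1000 bases.

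The list's other measure of error, an empirical false discovery rate (eFDR) from exchanging IP and input, went the other way. Of the 6 peaks, 1 had an eFDR of at most 0.05, Nefm at 0.0263, while 37.7% of the peaks over exons did. The eFDR was 0.909 at both Nefl peaks, 0.889 at both Ina peaks and 0.478 at Vim. The adjusted p was listed as 0 for all 6, as for 382 of the 657 peaks, and of those 382 peaks 57 had an eFDR of at most 0.05 (14.9%). Both columns are the authors', and the reason for the gap was not tested.

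**Figure D3:**
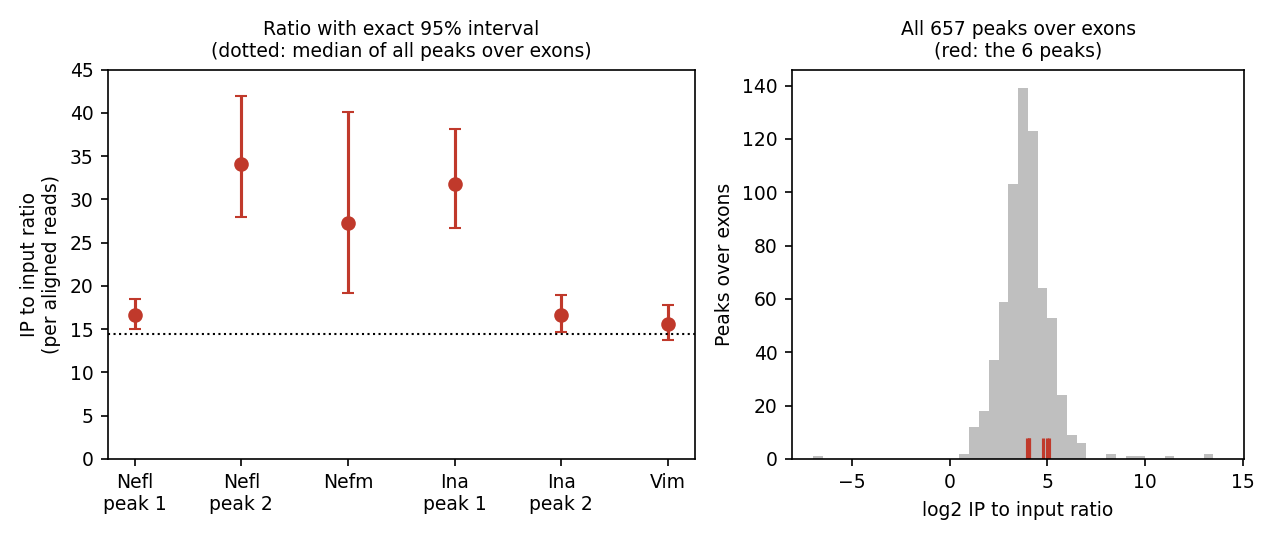
Left, IP to input ratio of each peak with its exact 95% interval, and the median of all 657 peaks over exons (14.5, dotted). Right, the log2 ratios of all 657 peaks over exons (pseudocount 0.5) with the 6 peaks as red lines. All 6 lie above the median of the distribution, which falls within the interval of Vim.

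Dividing by other library totals moves all 6 ratios by the same factor and leaves their order and the comparisons between them as they are. With uniquely aligned reads each ratio is multiplied by 0.613, which gives 20.9 for the second Nefl peak and 9.58 for Vim. With the reads within chromosome peaks as totals, the 6 ratios ran from 7.38 to 16.1. All stayed above 1.

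Sequence was not used to choose the peaks. The study describes Mov10 as a helicase that binds structured RNA rich in G. G content, folding and purine content were therefore set beside 597 peaks with at least 100 exonic bases and beside all windows of the same length in the same transcript. Purine content was added after the sequences had been seen. The Nefm peak was 40.0% G (rank 19 of 597) and 77.6% purine (A or G), the highest purine share of all 597. The second Nefl peak was 34.7% G (rank 61) and 63.1% purine (rank 36), and the first was 31.8% G (rank 89) and 57.1% purine (rank 110). The median peak was 24.5% G and 50.0% purine.

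The Ina and Vim peaks held less G. G made up 23.5% of the first Ina peak, 21.5% of the second and 22.2% of Vim, all under the median. The purine share of the first Ina peak, 52.5%, was above the median (rank 205 of 597), while the second Ina peak with 41.5% (rank 514) and Vim with 39.6% (rank 550) were below it. So peaks above the median G share occurred in both the upper and the lower trio of ratios, as did peaks below it. The one below it in the upper trio, the first Ina peak, was close to the median (rank 338 of 597). The peaks with the most G, Nefm and the second Nefl peak, were both in the upper trio.

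Within its own transcript, each Nefl and Nefm peak held more G than most windows, and for the first Nefl peak this did not hold within the coding sequence. The Nefm peak held more G than 87.2% of the windows of its transcript and than 82.9% of those within the coding sequence. The second Nefl peak exceeded 85.6% and 71.3%. The first Nefl peak exceeded 77.2% of windows in the transcript but 50.2% of those in the coding sequence. The first Ina peak, the second Ina peak and Vim exceeded 36.8%, 28.7% and 15.5% of the windows of their transcripts. The purine share of Nefm was higher than in 90.1% of the windows of its transcript, that of the second Nefl peak than in 88.4% and that of the first than in 58.8%. Within the coding sequence these shares were 86.8%, 83.0% and 39.7%. Purine shares of the first Ina peak, the second Ina peak and Vim exceeded 44.3%, 8.54% and 3.55% of the windows of their transcripts.

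**Figure D4:**
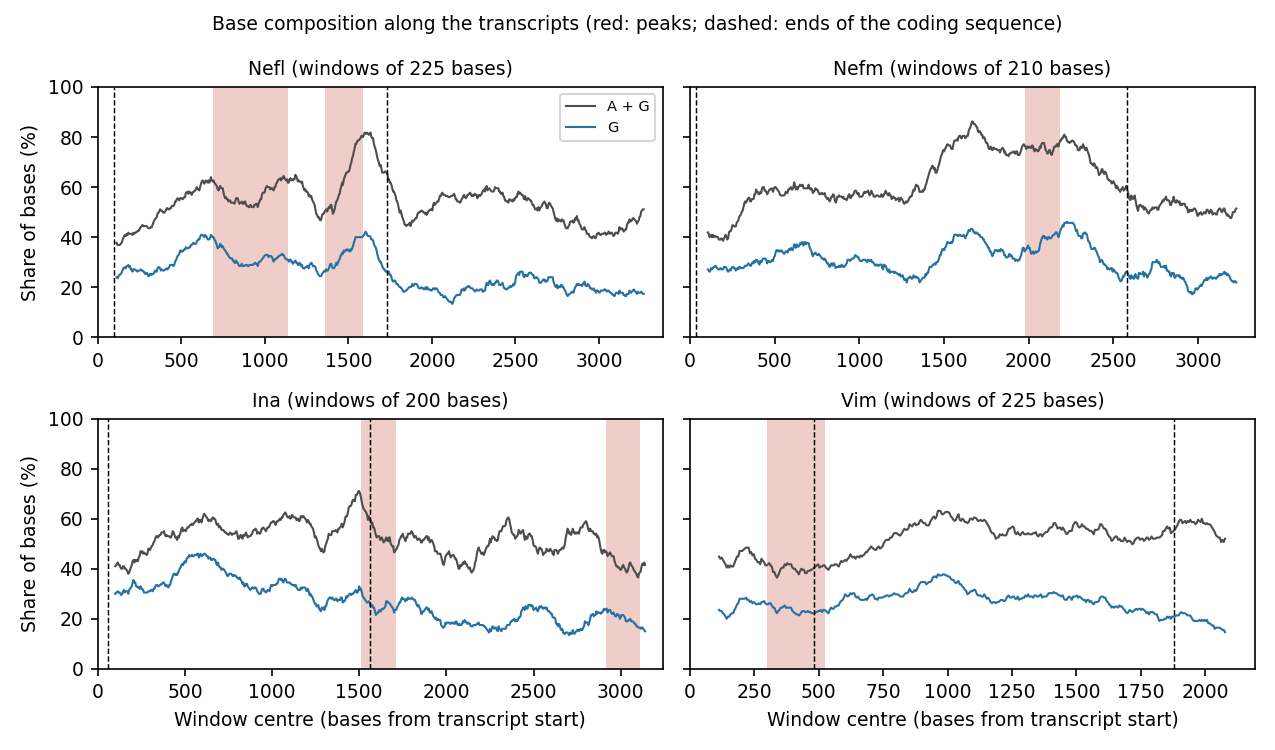
Share of A plus G (dark) and of G (blue) in windows along each transcript, at steps of 5 bases, with peaks shaded in red and the ends of the coding sequence dashed. The second Nefl peak and the Nefm peak lie on or beside the purine-rich tail sequence, and the purine-richest windows of both transcripts are centred outside the peaks.

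Predicted folding did not set the 6 peaks apart in one direction. The minimum free energy per 100 bases was -34.3 kcal/mol at the first Nefl peak, -30.6 at the second, -27.2 at Vim, -27.1 at the second Ina peak, -20.9 at the first and -18.8 at Nefm, against a median of -27.0. The most G-rich and purine-rich of the 6, Nefm, was therefore predicted to fold least.

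The encoded proteins were 44.8% (NEFM and vimentin) to 51.7% (INA and vimentin) identical over aligned residues, and NEFL and NEFM shared 49.3%. In a search of the sense strand of the transcripts of all other genes, no peak had a match of 100 bases or longer with an identity of 95% or above. The antisense overlap of the first Nefl peak with the alternative Nefm transcript was outside that search. The closest long match of the first Nefl peak was to Des, the muscle filament desmin, at 67.3% over 425 bases.

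Of the intermediate filament family, 23 genes were listed, and 20 of them lie opposite a chromosome strand that has any peak in the list. Peaks were found in 4 of the 20, the genes described above, against the 2.65% of all protein-coding genes given above. Since the genes were chosen for having peaks, the share is a description. The heavy neurofilament chain Nefh, peripherin (Prph), nestin (Nes), Gfap, Des and synemin (Synm) had no peak over an exon. The list holds called regions alone, so it gives no read count or upper limit for those mRNAs. Lmna, Krt5 and Krt8 lie on strands without a peak and could not be assessed.

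Among linkers, motors and kinases of neurofilaments, 5 of 18 genes had a peak, with a median ratio of 12.1. That median takes the peak of each gene with the highest IP count. The kinase activator Cdk5r2 (p39) had 2 peaks, with 11128 IP and 446 input reads at the larger, a ratio of 20.8 (18.9 to 22.9), and 8404 and 286 at the other, a ratio of 24.5 (21.8 to 27.7). Its summed ratio was 22.2 (20.7 to 24.0), beside 20.4 for Nefl and 21.7 for Ina. Gsk3a, a kinase that phosphorylates neurofilament tails, had 1 peak of 4450 IP and 185 input reads and a ratio of 20.1 (17.3 to 23.4). Its paralog Gsk3b had 2 peaks, with ratios of 4.78 (4.05 to 5.66) and 5.62 (4.54 to 7.01), both below all 6 filament peaks. The dynactin subunit Dctn1, part of the motor that moves filaments along microtubules, had 3 peaks of few reads. The one with the most, 574 IP and 39 input reads, had a ratio of 12.3 (8.87 to 17.4), and the others had 22.4 (14.2 to 37.5) from 511 and 19 reads and 11.9 (8.27 to 17.7) from 443 and 31.

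The other cytoskeletal systems gave lower medians, taking for each gene its peak of highest IP count. The median was 16.6 for the 4 filament genes, 6.40 for 7 of 24 actin genes and 6.34 for 11 of 26 microtubule genes, whose range was 2.29 to 107. All genes with a peak over an exon had a median of 14.7. The ranges of the lists overlap, and no test of the lists was made. For the cell types that use these filaments, the median was 14.5 over the 6 neuron markers (range 5.69 to 29.1). It was 10.5 over the 3 radial glia and astrocyte markers. The endothelial, pericyte and meningeal markers had a median of 60.5, with a range of 14.6 to 117. Input reads at their peaks were few, with 13 at Sparc, 15 at Cldn5, 34 at Fstl1, 38 at Igf2 and 109 at Col1a2. Scaled to peak length, their median reads were below those of the neuron markers in both libraries. With the reads of each gene's peaks summed, the median ratio of the endothelial, pericyte and meningeal markers was 39.8.

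The genes nearest to each filament gene in reads per 1000 bases of both libraries, by distance on the log2 scale, were of mixed function. Eid1 and Cpsf6 were nearest to the first Nefl peak, with ratios of 18.1 (15.7 to 20.9) and 19.5 (16.8 to 22.7). Arglu1 and Hnrnpc were nearest to Nefm, with 27.5 (20.3 to 38.1) and 23.7 (16.9 to 34.2). Ptma and Dnajb6 were nearest to the second Ina peak, with 17.6 (16.3 to 18.9) and 15.7 (14.0 to 17.8). Gnas and Capns1 were nearest to Vim, with 15.5 (13.6 to 17.7) and 15.7 (13.7 to 18.0). Likeness here rests on 2 libraries, and each neighbour's ratio is close by construction.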

How the data were processed

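RNA from 28 pooled P2 brains was sequenced as 1 Mov10 IP and 1 input library. Per the labels' processing notes, base calls came from bcl2fastq 2.17.1.14 and alignments to mm10 from TopHat2 2.1.1. The authors called peaks with RIPSeeker on each strand, assigning multiply aligned reads to single places, and deposited for each peak the IP and input read counts (not scaled to library size), an adjusted p-value and an eFDR as other scores, all used as deposited. The authors' log odds scores and unadjusted p-values were not used. Counts were divided by the aligned reads of each library, as given in the study's methods, since reads in peaks are not its depth. Ratios carry exact conditional binomial intervals and ratios of ratios exact conditional intervals (scipy 1.17.1). These were checked on simulated counts that carry counting error alone, so the check does not cover any other spread. With 1 library per group no test was made. Exons and sequences came from GENCODE M21. Folding used ViennaRNA 2.7.2 and copies BLAST+ 2.17.0. Medians carry a pseudocount of 0.5.

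The members and gene lists were chosen with earlier results of these data known. The genes named were the 4 filament genes with all their peaks, any other family gene with a peak, up to 4 linkers, motors or kinases by IP reads, and the 2 genes nearest to the peak of each filament gene with the most IP reads. Family genes without a peak, Des as a sequence match, and the genes stated to be on strands without peaks were named outside this rule. Alternatives were other library totals, pseudocounts, thresholds, overlaps and windows. The sequences of the Nefl and Nefm peaks are not reported here.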

Additional observations from a re-analysis of the deposited data

How the results depend on the processing

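Without replicates, no ratio has an estimate of biological or technical spread, and the input counts, as low as 32 reads at Nefm, limit precision. With uniquely aligned reads as library totals, the ratios were 10.2 and 20.9 for the first and second Nefl peak, 16.7 for Nefm, 19.5 and 10.2 for the first and second Ina peak and 9.58 for Vim. With all reads they were 13.6 and 27.9 for Nefl, 26.0 and 13.6 for Ina and 12.8 for Vim, while Nefm stayed within its interval. With reads in all chromosome peaks they were 7.86 and 16.1 for Nefl, 12.9 for Nefm, 15.0 and 7.84 for Ina and 7.38 for Vim. These shifts follow from the totals alone. With an eFDR of 0.05 in place of the adjusted p, 1 of the 6 peaks passed, and the cause was not tested. Among windows of the coding sequence alone, lower G, lower G plus C and weaker folding were found in 50.2%, 48.9% and 49.4% for the first Nefl peak, 71.3%, 32.6% and 35.5% for the second, and 82.9%, 42.3% and 24.8% for Nefm. Such windows leave out both UTRs, whose separate effects were not tested. The pseudocounts, the stricter adjusted p of 0.01, the overlap of at least 50% of the peak and the minimum of 10 input reads left the values they were run on within the limits set, as did summing the peaks of each of the 4 genes. GENCODE exons alone are what the main values use, so they are no alternative, and exons of RefSeq alone were not run. No paired analysis was possible because each group has 1 library.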
